A study of Mus musculus with 16 samples.

Results

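The 33 genes described here are transcripts of B cells, T cells and the stroma of lymph nodes, measured in the gastrocnemius muscle of mice. They were chosen by symbol, with their measured levels in these libraries already known, and all 33 were found among the 35415 genes of the tables. They comprise 5 genes of lymph node stroma, 4 genes of lymphotoxin and chemokine receptors, 9 B cell genes, 13 T cell genes and 2 cytotoxic effector genes. Because their levels were known when they were selected, those levels are given as a description, and the fits between groups given further on are no independent test of them.

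The mice were male BALB/c animals, wild type and 8 weeks old at purchase. Group C (NC in the labels) was the untrained control, group E (N-A) was trained on a treadmill, group T (TS) carried subcutaneous CT26 tumors without training, and group TE (TSA) was inoculated with the same cells and trained. The study states that not every inoculated TE mouse developed a tumor, and the tumor of each sequenced TE mouse is known here only from the group label. CT26 is a mouse colon carcinoma line, inoculated at the hind limb, where C and E mice received saline instead. Training lasted 4 weeks, with 6 sessions a week of 60 min each and a belt speed of 14 m/min. Each group held 12 mice, and 4 libraries of poly(A) RNA per group were sequenced, each labelled as a separate biological replicate of batch 1. The 4 mice of each group were picked at random, per the study's methods. Total counts ranged from 35628211 to 37635741 per library, so that 3 counts, the limit that a count of 0 allows, corresponded to 0.0797 to 0.0842 CPM (counts scaled to library size, counting error only). The 14 muscle genes fixed as markers, among them Acta1 and Ckm, summed to between 78291 and 90051 FPKM (fragment counts scaled by gene length and library size), so muscle markers were present at high levels in all 16 libraries, while the lymphocyte markers described below were near 0 in most.

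Lymphocytes enter lymph nodes through high endothelial venules, whose cells carry sulfated mucins that hold passing lymphocytes. Inside the node, stromal cells draw T cells and dendritic cells with the ligands of Ccr7 and draw B cells into follicles with the ligand of Cxcr5. Lymphotoxin made by lymphocytes acts on its receptor on stromal cells and maintains both kinds of stroma. Resting skeletal muscle holds few lymphocytes, so most of these transcripts are scarce in it.

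Promoter sequence was taken from RefSeq for the members whose values are set out below, to show the short motif that most of the matched members share. RefSeq's table, on build GRCm38.p6, held 23 of the 33 members with 28 start sites. The letters AGGAAG, the core bound by ETS factors, were present on one strand or the other in 17 of the 28 windows of 250 bases before a start (60.7%), against 29.5% of all 32851 windows of that length. The longer form CAGGAAG, which contains the first, was present in 10 (35.7%) against 10.8%. An NF-kappa B element was found in the windows of Ltb and Madcam1 (7.14% of windows against 0.140%). The Ltb run printed below does not hold it, and 101 of the 250 bases of that window, inside the annotated gene, are left out there. The octamer ATGCAAAT was in none of the members' windows (1.60% of all), and the interferon-stimulated element was before Ccl19 only (3.57% against 2.98%). A match describes the letters alone. In the 5 sequences below, placed on GRCm39 by exact match, the AGGAAG core or its reverse complement is in capitals, and each run ends at the base before the annotated gene.
Glycam1, chr15:103473516-103473758, minus strand: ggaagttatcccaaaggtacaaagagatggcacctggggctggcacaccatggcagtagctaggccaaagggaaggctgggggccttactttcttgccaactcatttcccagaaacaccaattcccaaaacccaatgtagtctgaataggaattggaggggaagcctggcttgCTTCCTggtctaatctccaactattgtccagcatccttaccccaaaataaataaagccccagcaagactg
Ccl21a, chr4:42773996-42774241, minus strand: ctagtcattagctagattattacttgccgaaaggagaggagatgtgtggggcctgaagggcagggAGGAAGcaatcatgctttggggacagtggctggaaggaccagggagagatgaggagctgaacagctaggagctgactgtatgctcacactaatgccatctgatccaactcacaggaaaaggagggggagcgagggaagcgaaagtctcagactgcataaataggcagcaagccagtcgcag
Cd3e, chr9:44920926-44921159, minus strand: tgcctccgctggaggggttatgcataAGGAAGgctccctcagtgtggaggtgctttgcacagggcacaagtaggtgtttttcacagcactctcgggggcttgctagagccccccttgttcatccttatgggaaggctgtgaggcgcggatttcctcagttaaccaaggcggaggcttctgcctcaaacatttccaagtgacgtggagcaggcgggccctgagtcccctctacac
Cd5, chr19:10716367-10716588, minus strand: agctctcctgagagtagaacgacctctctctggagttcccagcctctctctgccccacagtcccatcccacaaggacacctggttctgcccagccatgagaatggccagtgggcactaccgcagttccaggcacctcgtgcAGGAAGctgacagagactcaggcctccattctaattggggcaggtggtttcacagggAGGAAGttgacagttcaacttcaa
Ltb, chr17:35413233-35413381, plus strand: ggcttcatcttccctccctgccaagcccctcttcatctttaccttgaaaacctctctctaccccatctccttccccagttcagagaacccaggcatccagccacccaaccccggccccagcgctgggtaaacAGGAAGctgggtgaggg

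The members were high in 1 trained tumor-bearing library, TE 4, and to a lesser degree in 4 tumor-free libraries. TE 4 held the highest FPKM for 32 of the 33 members, and C 3 held it for the remaining one, Cd247. C 3 came next for 28 members, and E 1 held the third rank for 18. The order TE 4, C 3, E 1 held for 17 members. Of all members, 25 were at least 1.5 times higher in TE 4 than in any other library.

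For each gene, the level in a library was compared with its own median over the 16 libraries after adding 0.1 FPKM. In TE 4, 29 of the 33 members were at least 4-fold above that median, in C 3 20, in E 1 11, in C 2 4 and in E 2 3. None of the members reached this fold in the other 11 libraries, which included all 4 T libraries. Of the 30 members that passed the low-count filter, 26 did so in TE 4, against 0.814% of all 14749 genes that passed it. The corresponding values were 20 members against 0.244% of genes in C 3, 11 against 0.136% in E 1, 4 against 0.0339% in C 2 and 3 against 0.163% in E 2. The measured levels chose the members, so nothing is read from these differences.

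The counts of all members together reached 8695 in TE 4, 3545 in C 3, 2621 in E 1, 1629 in E 2 and 1429 in C 2. They lay between 418 and 903 in the other 11 libraries. No member was at 0 counts in TE 4, E 1 or C 2, and 1 was at 0 in C 3 and in E 2. Between 2 and 13 members were at 0 in each of the others. TE 4 had 36701769 counts in total, inside the range of the other libraries.

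**Figure D1:**
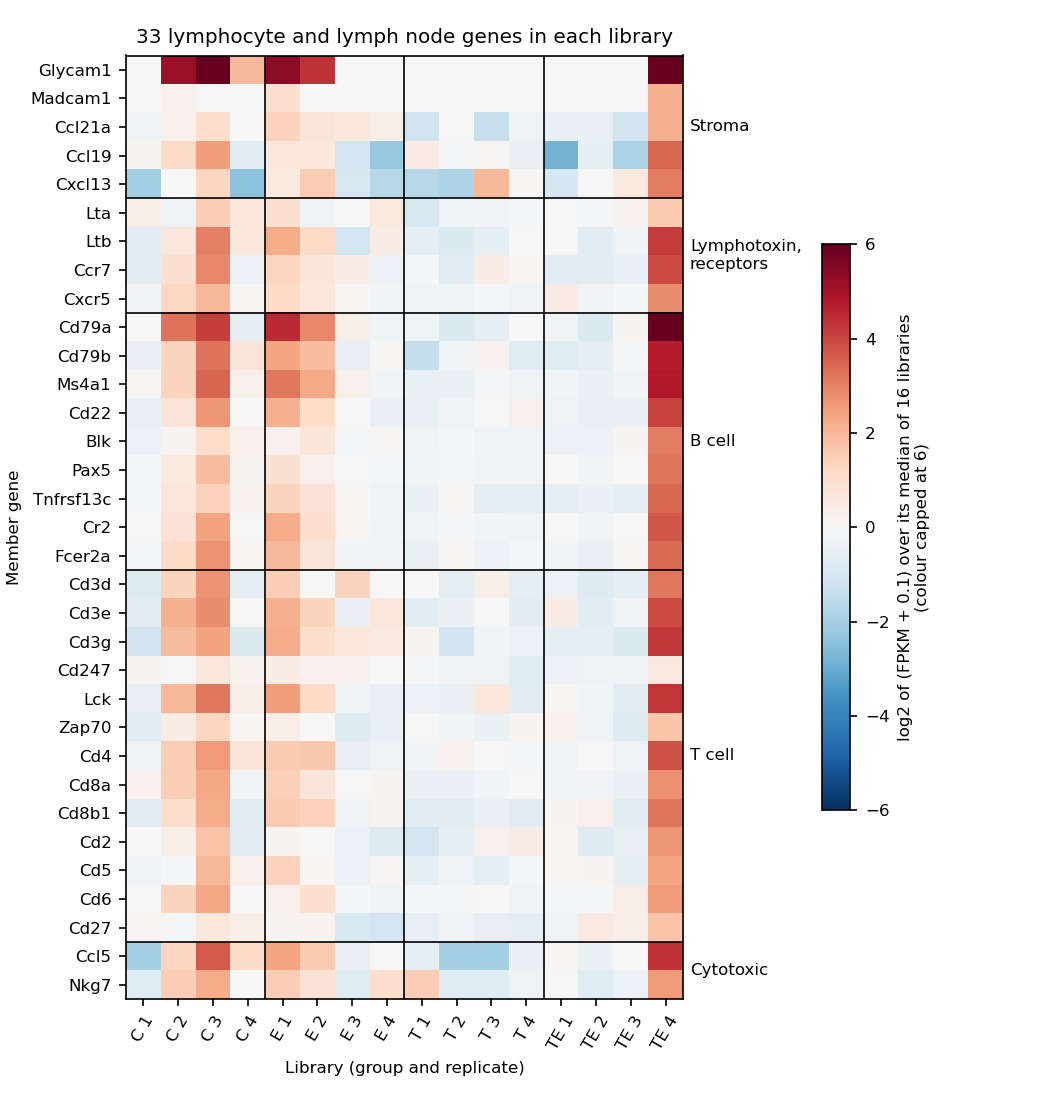
Colour shows log2 of (FPKM + 0.1) over the gene's median of 16 libraries, with members in rows by role and libraries in columns by group. TE 4 is dark red in nearly every row (29 of 33 members at least 4-fold above their median), C 3 and E 1 are paler, and no member reaches 4-fold in the 4 T libraries.

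The 5 stroma genes summed to 108 FPKM in TE 4, 36.8 in C 3, 35.1 in E 1, 25.4 in E 2 and 19.6 in C 2, and to between 5.77 and 17.1 in the rest. The group means were 19.2 ± 12.5 FPKM in C, 22.9 ± 9.52 in E, 9.62 ± 2.64 in T and 33.2 ± 50.1 in TE (SD, n = 4). The SD of the TE group was larger than its mean. In whole muscle, a lower level from fewer cells of a type and one from less RNA per cell cannot be told apart.

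Glycam1 encodes a sulfated mucin of high endothelial venules, and it was the member with the sharpest split. Its counts were 0, 87, 175 and 7 in C 1 to C 4, 99, 46, 0 and 0 in E 1 to E 4, and 0 in all 4 T libraries. In TE 1, TE 2 and TE 3 it was also at 0, and TE 4 had 1023 counts (41.7 FPKM). Glycam1 was therefore counted in 6 of 16 libraries, 5 of which were the libraries with the highest member sums.

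Madcam1, the venule addressin that binds the integrin α4β7 of homing lymphocytes, was counted in TE 4 (18), E 1 (5) and C 2 (1) and in no other library, and it did not pass the low-count filter. The venule genes Chst4, a sulfotransferase, and Fut7, a fucosyltransferase, both of which modify venule mucins, are no members and were chosen for naming after their values were seen. Chst4 had 27 counts in TE 4, 12 in E 1, 7 in C 3, 3 in E 2 and 1 in C 2, and 0 in the other 11. Fut7 had 19 counts in TE 4 and at most 4 in any other library.

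Ccl21a encodes the Ccr7 ligand made by fibroblastic reticular cells, venules and lymphatic vessels. Its FPKM was 8.57, 13.2, 22.2 and 10.2 in C 1 to C 4 and 27.9, 18.4, 16.2 and 13.5 in E 1 to E 4. It was 4.50, 10.9, 4.05 and 8.62 in T 1 to T 4 and 7.77, 7.58, 4.52 and 46.2 in TE 1 to TE 4. Unlike Glycam1, Ccl21a was present in every library (at least 132 counts), and all 4 E values lay above TE 1, TE 2 and TE 3. Ccl21a has near-identical copies in the mouse genome, so its level is uncertain by however the counting split reads among the copies.

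Ccl19, the other Ccr7 ligand, had 14, 31, 82 and 7 counts in C 1 to C 4 and 22, 21, 5 and 1 in E 1 to E 4. It had 19, 12, 14 and 9 counts in T 1 to T 4 and 0, 8, 2 and 162 in TE 1 to TE 4. The Ccl19 values of C, E and T overlapped.

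Cxcl13, the follicular chemokine that binds Cxcr5, had FPKM of 0.242, 1.33, 3.48 and 0.166 in C 1 to C 4 and 2.12, 4.17, 0.663 and 0.353 in E 1 to E 4. It was 0.353, 0.304, 5.70 and 1.45 in T 1 to T 4 and 0.634, 1.404, 2.13 and 12.4 in TE 1 to TE 4. Cxcl13 was the single member whose second highest library was a T library, T 3, with 249 counts.

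**Figure D2:**
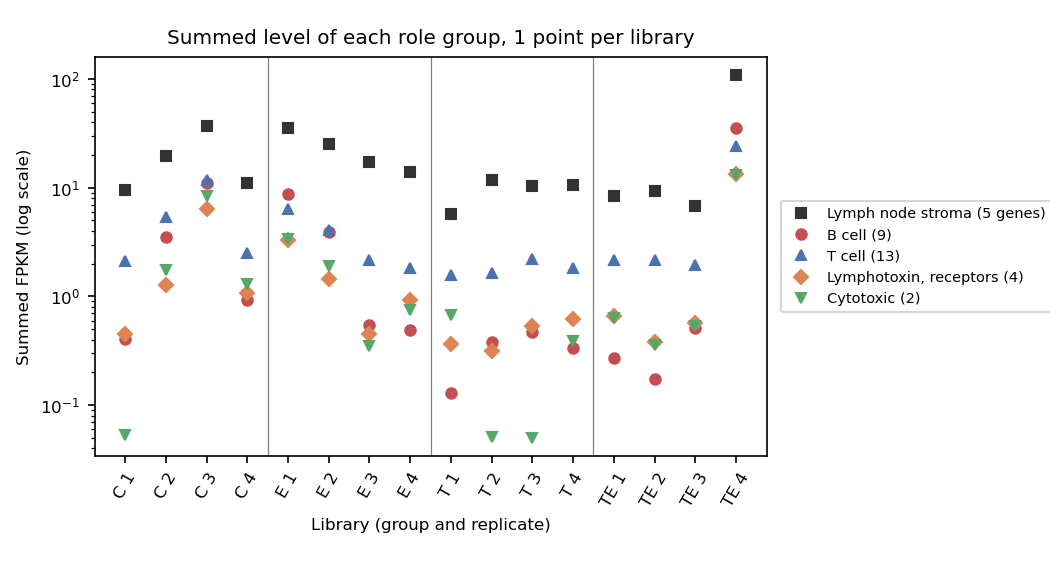
Each point is the summed FPKM of 1 role group in 1 library, on a log axis, with libraries on the x axis by group. TE 4 is highest in all 5 role groups, C 3 is second in all 5, and the B cell sum spans from 0.130 in T 1 to 35.4 in TE 4.

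Lymphotoxin and chemokine receptor genes were highest in the same libraries. The 4 genes summed to 13.3 FPKM in TE 4, 6.31 in C 3, 3.30 in E 1, 1.46 in E 2 and 1.28 in C 2. In the other 11 libraries the sum lay between 0.316 and 1.08 FPKM.

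Ltb encodes the membrane-anchoring chain of lymphotoxin. Its counts were 9, 31, 168 and 29 in C 1 to C 4, 99, 43, 6 and 25 in E 1 to E 4, 11, 8, 11 and 17 in T 1 to T 4, and 18, 10, 14 and 385 in TE 1 to TE 4. Ltb was above 0 in every library, and its T values, from 8 to 17, took in that of C 1 and lay above that of E 3. Lta, the other chain, was more even, between 2 counts in T 1 and 40 in TE 4, with 37 in C 3.

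Ccr7, which guides T cells and mature dendritic cells to the node, had 0, 16, 80 and 2 counts in C 1 to C 4 and 22, 12, 9 and 2 in E 1 to E 4. It had 4, 0, 9 and 5 counts in T 1 to T 4 and 0, 0, 1 and 171 in TE 1 to TE 4. Cxcr5, the receptor that brings B cells to follicles, reached 68 counts in TE 4 and 34 in C 3 and was at 0 in 6 libraries. Cxcr5 overlaps the protein-coding gene Bcl9l on the opposite strand, and whether the counting used strand is not given in the sources used here, so its counts are uncertain.

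The 9 B cell genes summed to 35.4 FPKM in TE 4, 11.0 in C 3, 8.80 in E 1, 3.897 in E 2 and 3.497 in C 2, and to between 0.130 and 0.918 in the other 11. The group means were 3.96 ± 4.89 FPKM in C, 3.43 ± 3.92 in E, 0.329 ± 0.143 in T and 9.10 ± 17.6 in TE (SD, n = 4). In C, E and TE the SD exceeded the mean.

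Cd79a and Cd79b encode the signaling chains of the B cell receptor. Cd79a had 3, 61, 115 and 1 counts in C 1 to C 4, 146, 45, 5 and 2 in E 1 to E 4, 2, 0, 1 and 3 in T 1 to T 4, and 2, 0, 4 and 491 in TE 1 to TE 4. The 4 T libraries and TE 1, TE 2 and TE 3 all had at most 4 counts of it. Cd79b had 8, 39, 160 and 25 counts in C 1 to C 4, 87, 58, 8 and 14 in E 1 to E 4, 2, 10, 16 and 6 in T 1 to T 4, and 6, 7, 12 and 454 in TE 1 to TE 4.

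Ms4a1, which encodes CD20 of mature B cells, had 4, 27, 153 and 7 counts in C 1 to C 4 and 120, 59, 7 and 2 in E 1 to E 4. It had 0, 0, 3 and 1 counts in T 1 to T 4 and 2, 0, 2 and 391 in TE 1 to TE 4. The lowest C library and the highest T library were thus 1 count apart.

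The other B cell genes ran from 0 or 1 count in their lowest library to their maximum in TE 4. That maximum was 368 counts for Cd22, an inhibitory receptor, 280 for Pax5, the factor that fixes B cell identity, and 388 for Cr2, the complement receptor also found on follicular dendritic cells. It was 225 for Fcer2a, the low-affinity IgE receptor, 109 for Tnfrsf13c, the receptor of the survival factor BAFF, and 87 for Blk, a kinase that did not pass the low-count filter. Fcer2a was above 0 in all 16 libraries, whereas Pax5, Cd22 and Tnfrsf13c were each at 0 in 4.

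The 13 T cell genes summed to 24.1 FPKM in TE 4, 11.9 in C 3, 6.42 in E 1, 5.35 in C 2 and 4.12 in E 2, and to between 1.58 and 2.50 in the other 11. The group means were 5.46 ± 4.52 FPKM in C, 3.63 ± 2.12 in E, 1.81 ± 0.271 in T and 7.58 ± 11.0 in TE (SD, n = 4). The floor of this group came largely from Cd247, Cd27 and Cd2. Without those 3 genes the sum was 16.9 FPKM in TE 4, 7.85 in C 3 and 4.24 in E 1, and its lowest value was 0.166 in C 1.

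Cd3e and Cd3g encode chains of the T cell receptor complex. Cd3e had 0, 32, 53 and 3 counts in C 1 to C 4, 32, 16, 1 and 8 in E 1 to E 4, 0, 1, 3 and 0 in T 1 to T 4, and 6, 0, 2 and 123 in TE 1 to TE 4. Cd3g had 0, 29, 43 and 1 counts in C 1 to C 4, 37, 14, 10 and 9 in E 1 to E 4, 6, 0, 4 and 3 in T 1 to T 4, and 2, 2, 1 and 161 in TE 1 to TE 4. For both genes the 4 T libraries and TE 1, TE 2 and TE 3 had at most 6 counts.

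Cd4, the coreceptor of helper T cells, had 2, 40, 94 and 17 counts in C 1 to C 4, 41, 43, 0 and 2 in E 1 to E 4, 3, 9, 5 and 4 in T 1 to T 4, and 3, 6, 2 and 240 in TE 1 to TE 4. Cd8a, the coreceptor of cytotoxic T cells, had 6, 30, 63 and 1 counts in C 1 to C 4, 29, 13, 4 and 5 in E 1 to E 4, 0, 0, 2 and 3 in T 1 to T 4, and 1, 1, 0 and 87 in TE 1 to TE 4. Of the summed Cd4 and Cd8a counts, Cd8a made up 26.6% in TE 4 (exact 95% interval 21.9 to 31.7%), 40.1% in C 3 (32.4 to 48.2%), 41.4% in E 1 (29.8 to 53.8%), 42.9% in C 2 (31.1 to 55.3%) and 23.2% in E 2 (12.98 to 36.4%). The intervals of TE 4 and C 3 did not overlap, and those of the other 3 overlapped both. These intervals cover counting error in single libraries only.

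Cd2, an adhesion receptor of T and NK cells, had 22, 29, 80 and 12 counts in C 1 to C 4, 25, 21, 17 and 11 in E 1 to E 4, 8, 14, 29 and 32 in T 1 to T 4, and 23, 11, 15 and 158 in TE 1 to TE 4. Cd247, the zeta chain of the receptor complex, was the most even member, between 78 counts in T 4 and 253 in C 3. Cd27, a costimulatory receptor, lay between 17 counts in E 4 and 164 in TE 4. Cd247 overlaps Pou2f1 and Cd27 overlaps Vamp1, both protein-coding and on the opposite strand, so their counts are uncertain for the reason given for Cxcr5.

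Of the remaining T cell genes, the kinase Lck had 288 counts in TE 4 and 128 in C 3, and the kinase Zap70 58 and 42. Cd3d had 79 counts in TE 4, Cd8b1, the partner chain of Cd8a, 73, and the scavenger receptor family members Cd6 and Cd5 66 and 51. Cd5 did not pass the low-count filter. In TE 4, the 4 members under the 4-fold limit were Cd247 (1.45-fold), Lta (2.99-fold), Zap70 (3.13-fold) and Cd27 (3.26-fold). Just inside it were Ccl21a (4.34-fold) and Madcam1 (4.403-fold).

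Ccl5, a chemokine of activated T and NK cells, had 1, 27, 149 and 24 counts in C 1 to C 4, 59, 33, 7 and 10 in E 1 to E 4, 6, 1, 1 and 7 in T 1 to T 4, and 11, 7, 10 and 237 in TE 1 to TE 4. Nkg7, a granule protein of cytotoxic cells, had 0, 11, 20 and 2 counts in C 1 to C 4, 11, 6, 0 and 7 in E 1 to E 4, 11, 0, 0 and 1 in T 1 to T 4, and 2, 0, 1 and 26 in TE 1 to TE 4. With 11 counts T 1 matched C 2 and E 1 for Nkg7.

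**Figure D3:**
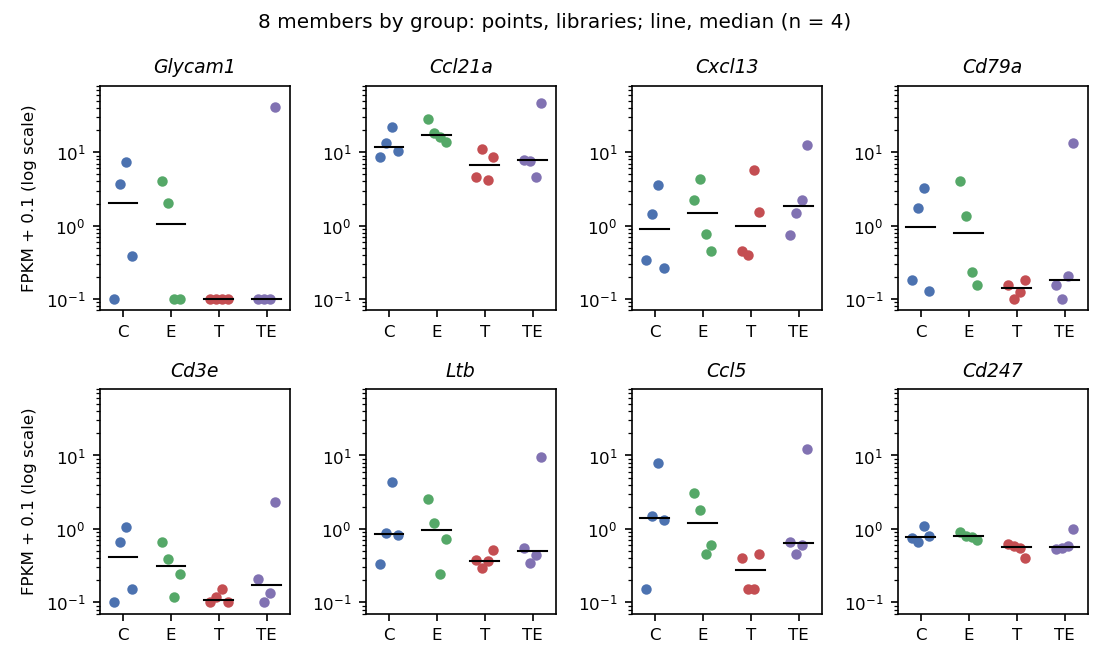
FPKM + 0.1 on a log axis for 8 members, with 1 point per library by group and a line at the median of 4. In every panel 1 TE point lies far from the other 3 or, for Cd247, above them, and for Glycam1 all 4 T points lie at 0 counts.

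The share of B cell against T cell genes was computed within each library. The summed B cell FPKM divided by the summed T cell FPKM was 1.47 in TE 4, 1.37 in E 1, 0.945 in E 2, 0.926 in C 3 and 0.653 in C 2. B cell genes took 61.2% of the B and T cell counts in TE 4 (exact 95% interval 59.7 to 62.6%), 53.8% in E 1 (51.1 to 56.6%), 48.4% in C 3 (46.1 to 50.6%), 40.9% in E 2 (37.2 to 44.6%) and 34.7% in C 2 (31.2 to 38.3%). These intervals, which cover counting error in single libraries only, did not overlap except for those of E 2 and C 2. In the other 11 libraries the B cell share lay between 3.38% and 18.7%. These shares and their order rest on Cd247, Cd27 and Cd2, which were counted in every library. Without those 3 genes, a choice made after seeing the data, the share was 69.5% in TE 4 (68.0 to 70.9%), 69.4% in E 1 (66.4 to 72.2%), 64.1% in E 2 (59.4 to 68.5%), 61.1% in C 3 (58.6 to 63.5%) and 49.2% in C 2 (44.8 to 53.6%). The intervals of TE 4, E 1 and E 2 then overlapped one another, as did those of E 2 and C 3. The other 11 libraries then ran from 7 of 35 counts in T 1 to 71.7% in TE 3, on 35 to 125 counts each, and so did not all lie below these 5.

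Gene by gene, the FPKM of C 3 was a median of 0.449 of that of TE 4, with a range from 0 for Madcam1 to 1.13 for Cd247. The median was 0.258 in E 1, 0.164 in C 2 and 0.130 in E 2, and at most 0.0386 in the others. The median over the B cell genes was 0.337 in C 3 and over the T cell genes 0.511. Glycam1 was 5.79 times higher in TE 4 than in C 3, whereas Ccl21a was 1.66 times higher in TE 4 than in E 1, its next library.

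**Figure D4:**
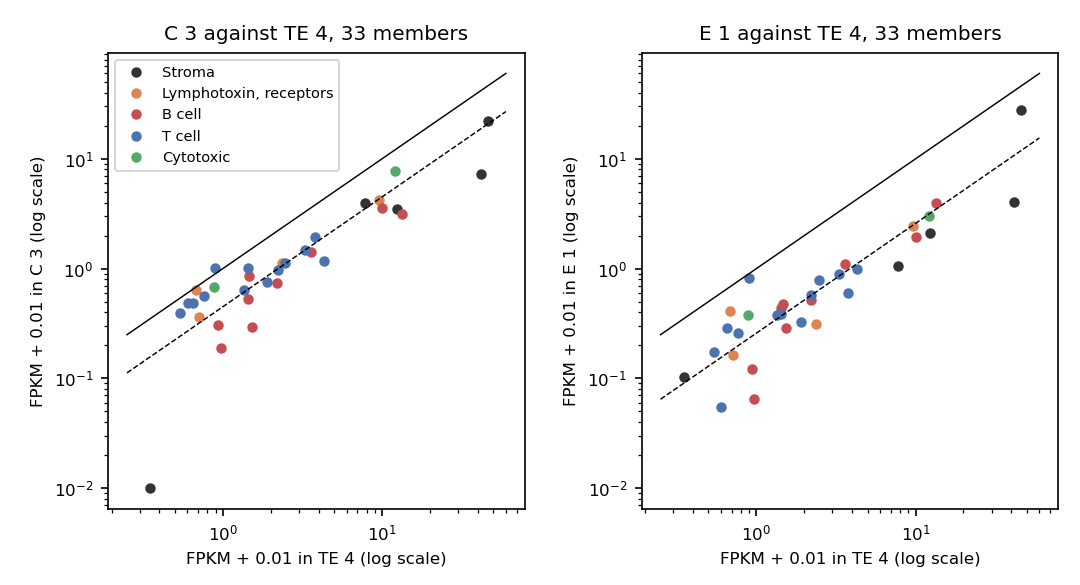
FPKM + 0.01 of the 33 members in C 3 and in E 1 against TE 4, on log axes, with 1 point per gene coloured by role. The solid line marks equal levels and the dashed line the median ratio (0.449 for C 3, 0.258 for E 1), and all points but Cd247 in C 3 lie below the solid line.

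For the tumor in untrained mice (T against C), the members had lower fitted levels in T, and none passed the test. The edgeR quasi-likelihood test called 0 of the 30 tested members at an adjusted p under 0.05 with a fold change over 2, against 0.285% of all tested genes. At an unadjusted p under 0.05 with the same fold limit, 13 members were called lower and none higher, against 2.20% of genes in both directions. The low-count filter here used all 16 libraries. In a fit of T and C alone, 10 members passed it. Of these 3, Cd79b, Lck and Ltb, were lower at an unadjusted p, with 240 of 14061 genes called in that fit. DESeq2 called 1 member, Glycam1, by the same adjusted rule, against 0.712% of genes, and limma-voom called 0 in this and the other 4 comparisons. The median log2 fold change of the members was -2.78, against -0.0012 over all tested genes, and 29 of 30 were below 0. It was the same with Glycam1 set at its bound (-2.78). Against a floor of 3 counts over the T group, Glycam1 was at least 91.3-fold lower in T than in C, and at least 42.6-fold lower without C 3, which held 175 of the 269 counts. These bounds pool the counts of each group and cover counting error only, not differences between mice. The one member above 0 was Cxcl13 (0.60), which was at -0.84 without T 3.

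In T against C, Cd79b had a log2 fold change of -2.74 ± 1.32 (SE, edgeR adjusted p = 0.360) and Ltb of -2.30 ± 1.146 (edgeR adjusted p = 0.382). Ccl21a was at -0.91 ± 0.56 (edgeR adjusted p = 0.496) and Cd27 at -0.78 ± 0.43 (edgeR adjusted p = 0.431). The smallest adjusted p among the members was that of Cd247, 0.184 by edgeR, at a log2 fold change of -0.69 ± 0.23. Without C 3 the median of the members was -1.71 and no member was called at an unadjusted p, instead of 13, against 2.16% of genes in that fit. Cd79b was then at -1.49 and Ltb at -0.96. Groups T and C did not overlap in FPKM for 5 members, Ms4a1, Cr2, Cd247, Cd6 and Cd27, against 6.85% of all tested genes. For Cd6 the gap was within equal counts (2 in C 1 and in T 3).

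For the tumor in trained mice (TE against E), the direction rested on TE 4. The edgeR test called 0 of 30 members, against 0.0746% of all tested genes, and DESeq2 called 0 members, against 0.386% of genes. Without adjustment, edgeR called 1 member at p under 0.05, Cd27, against 1.38% of genes. The members' median log2 fold change was 1.31, against 0.0029 over all tested genes. Without TE 4 it was -2.28, and 12 of 30 members were then called lower at an unadjusted p and none higher, against 1.72% of all genes tested in that fit, still with 0 called after adjustment. Without C 3 and E 1 as well, the median was -0.79 and 2 of the 14 members tested were lower at an unadjusted p, against 1.54% of genes in that fit. Without C 2 and E 2 in addition, it was 0.22, with 1 of 12 higher and 1 lower, against 1.63% of genes.

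In TE against E, Cd79b was at 1.53 ± 1.14 with all libraries (edgeR adjusted p = 0.723) and at -2.24 ± 0.96 without TE 4 (edgeR adjusted p = 0.546). Ltb was at 1.32 ± 1.03 (edgeR adjusted p = 0.744) and at -1.56 ± 0.86 without TE 4 (edgeR adjusted p = 0.670). Ccl21a was at -0.17 ± 0.54 (edgeR adjusted p = 0.956) and at -1.45 ± 0.36 without TE 4 (edgeR adjusted p = 0.215). Cd27 kept its sign, at 1.25 ± 0.42 (edgeR adjusted p = 0.317) and 0.74 ± 0.38 without TE 4. Cd247 was at -0.27 ± 0.23 (edgeR adjusted p = 0.773). The groups overlapped for all 30 tested members, while 6.73% of all tested genes did not overlap.

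For training in tumor-free mice (E against C), the member levels of C and E overlapped, with high libraries in both groups (C 3 and C 2, E 1 and E 2). The edgeR test called 0 of 30, against 0.0475% of all tested genes. At an unadjusted p under 0.05 it also called 0, against 1.44% of genes, and DESeq2 called 0 members, against 0.278%. The median log2 fold change was -0.67 with 27 of 30 below 0, and 0.49 without C 3. No tested member had groups that did not overlap, against 8.67% of genes.

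For training in tumor-bearing mice (TE against T), the edgeR test called 0 of 30 members, with 0% of all tested genes called. At an unadjusted p under 0.05 with the fold limit, 22 members were called higher in TE and none lower, against 1.23% of genes. In a fit of TE and T alone, 8 members passed the low-count filter. Of these 2, Cd27 and Ltb, were higher at an unadjusted p, with 100 of 14110 genes called in that fit. DESeq2 called Glycam1, against 0.0271% of genes. The median log2 fold change was 3.75, against 0.0014 over all tested genes, and it was unchanged with Glycam1 at its bound. Against a floor of 3 counts over the T group, Glycam1 was at least 342-fold higher in TE by pooled counts, and all of its 1023 counts came from TE 4. That bound covers counting error only, not differences between mice. Without TE 4 the median was -0.0024 and the 22 calls fell to 0, against 0.977% of genes in that fit.

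In TE against T, Cd79b moved from 3.77 ± 1.33 (edgeR adjusted p = 0.748) to -0.0048 without TE 4, and Ltb from 3.13 ± 1.150 (edgeR adjusted p = 0.758) to 0.25. Ccl21a moved from 1.20 ± 0.56 (edgeR adjusted p = 0.847) to -0.08. Cd247 was at 0.33 ± 0.23 (edgeR adjusted p = 0.902). Cd27 was at 1.35 ± 0.42 (edgeR adjusted p = 0.717) and at 0.83 ± 0.38 without TE 4. Cd27 was also the single member whose groups did not overlap in FPKM, against 2.47% of all tested genes, although T 2 and TE 1 had equal counts of it (39).

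The interaction asks whether the tumor difference depended on training. The edgeR test called 0 of 30 members, with 0% of all tested genes called, and DESeq2 called Glycam1, against 0.0881% of genes. At an unadjusted p under 0.05 with the fold limit, 19 members were called, all in the direction of a higher tumor difference in trained mice, against 2.14% of genes. The median interaction was 4.34 on the log2 scale and 0.56 without TE 4, when 1 member, Cd27, was called at an unadjusted p, against 2.01% of genes in that fit. The 5 comparisons share libraries: T against C and E against C use the same C libraries, and TE against E and TE against T the same TE libraries, and the interaction uses all 16.

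**Figure D5:**
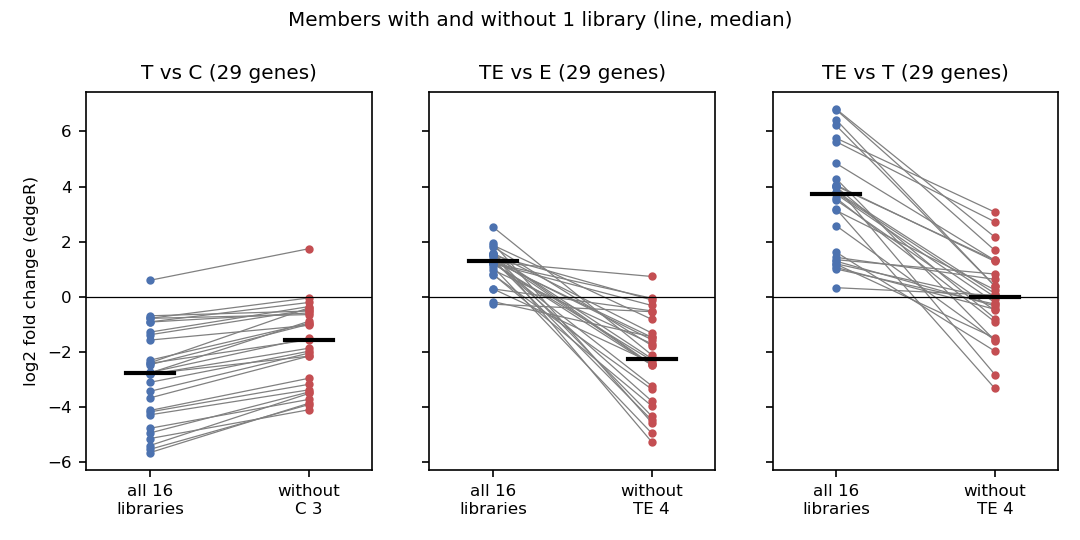
Each grey line joins the edgeR log2 fold change of 1 member with all 16 libraries and without 1 library, for 29 tested members (Glycam1 is left out, since its fold depends on a group at 0). Without C 3 the T against C values other than that of Cxcl13 move toward 0, and without TE 4 the median falls from 1.29 to -2.24 in TE against E and from 3.73 to -0.0048 in TE against T.

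Other lymphocyte genes, from lists that hold no member, were high in the same library. The 15 other B cell genes summed to 34.1 FPKM in TE 4 and to between 2.08 and 11.995 in the other 15 libraries, with C 3 next. Of its 14 tested genes 10 were at least 4-fold above their median in TE 4, among them Cd72, Spib and Pou2af1. The 21 other T cell genes summed to 17.4 FPKM in TE 4 against 5.75 to 12.4 elsewhere, and 7 of 12 tested genes reached 4-fold, among them Il7r, Tcf7 and Lef1. The pan-leukocyte and homing list summed to 47.2 to 81.8 FPKM in C, 57.2 to 75.6 in E, 53.4 to 87.9 in T and 60.6 to 167 in TE, the top value being TE 4. In the 5 comparisons edgeR called none of the genes of these 3 lists. Its highest unadjusted counts, with the fold limit kept, were in TE against T, with 7 of 14 other B cell, 5 of 12 other T cell and 2 of 18 pan-leukocyte genes higher in TE, against 1.23% of all tested genes.

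Of 13 immunoglobulin-related genes, Jchain and Mzb1 were analysed here, and Jchain had 222 counts in TE 4 and 153 in E 2 against 7 to 38 in the others. The germinal centre list as a whole was not raised in TE 4 (13.4 FPKM, rank 14 of 16), since Bcl6 made up most of it. The NK and cytotoxic list was low, at 3.03 FPKM in TE 4 and 0.440 to 1.58 in the other libraries.

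The sums of stromal lists without members did not follow the same libraries closely, although Chst4 and Fut7 of the venule list, at low counts given above, were highest in TE 4. The 12 other venule genes, several of them also expressed by ordinary vessels (Cd34 and Podxl gave the largest share), summed to 85.7 FPKM in TE 4 within a range of 77.6 to 117, and Ackr1 had 0 counts in all 16. The lymphatic vessel list stood at 9.14 FPKM in TE 4 and highest in T 3 at 12.9. The reticular and follicular dendritic list was highest in TE 4 at 109 FPKM, against 63.7 to 90.9 in the others (E 1 next), with no tested gene at 4-fold. The dendritic cell list was highest in C 3 (17.6 FPKM), with 14.04 in TE 4, where Ccl22, a ligand of Ccr4, reached 10.7-fold over its median.

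Genes of the pathways around the members were mostly detected in every library. The 16 non-member genes of the lymphotoxin and noncanonical NF-kappa B list summed to 40.6 to 57.5 FPKM over all libraries, 55.4 in TE 4, and Ltbr, the lymphotoxin receptor, was at 8.98 FPKM in TE 4 against 7.76 to 9.62 in the other 15. The chemokine axis genes that are no members summed to 43.1 FPKM in TE 4 (rank 11 of 16). Of 18 tested antigen receptor signaling genes that are no members, 7 were at least 4-fold above their median in TE 4 (among them Lat, Vav1, Btk, Ptpn6 and Ptprc). Called genes of these 3 lists numbered 0 in each comparison by edgeR, members included. In TE against T, some genes of these 3 lists were higher at an unadjusted p, members included. They numbered 3 of 18 tested in the lymphotoxin list, 2 of 11 in the chemokine list and 8 of 27 in the antigen receptor list. All those of the lymphotoxin and chemokine lists were members (Lta, Ltb, Tnfrsf13c, Ccl21a and Cxcr5). In the antigen receptor list Cd79a, Cd79b, Cd22, Cd3e, Cd3g and Lck were members. Members were chosen with their levels known, so nothing is read from these counts beside the 1.23% of all tested genes.

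Among genes that passed the low-count filter, the non-members furthest above their own median in TE 4 were mostly of the same kind. The first 20 were led by Ubd, a ubiquitin-like modifier of antigen-presenting cells (33.2-fold), Pou2af1, a B cell coactivator (26.0-fold), and Fcmr, the IgM receptor (24.9-fold). Those after them included Ptprcap, Spib, Ms4a4b, Cd72, Fcrl1, Gimap3, Cd37, Cd52, Bank1 and Ly9, between 17.9-fold and 9.57-fold. Sele, Retnlg, Jchain, Selp and H2-Ob completed them, at 9.32-fold to 9.47-fold. For 14 of the 20 the next highest library was C 3. Sele and Selp, selectins of activated endothelium, were next highest in T 4 and T 3, and the neutrophil gene Retnlg was higher in T 4 (4.92 FPKM) than in TE 4 (2.33 FPKM).

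Markers of other cell types were read in the same libraries. The 9 erythroid genes summed to 362 to 529 FPKM in C, 393 to 582 in E, 736 to 823 in T and 864 to 1274 in TE, and TE 4 was the highest, though no tested gene reached 4-fold. By edgeR 1 of 7 tested erythroid genes was called higher in T against C, against 0.285% of all tested genes. In TE against E 3 were called higher, against 0.0746%. The 11 neutrophil genes summed to 1.96 to 18.2 FPKM in C, 2.24 to 9.56 in E, 16.05 to 89.7 in T and 21.4 to 41.7 in TE. Of 10 tested, 5 were called higher in T against C, against 0.285% of all tested genes. TE 4 was second for neutrophil genes, and C 3 (2.96 FPKM) and E 1 (2.24 FPKM), where members were also high, were among the lowest. The macrophage list ranged from 5.96 to 16.2 FPKM with TE 4 at 14.3. The part of blood cells in the members' levels was not tested.

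Fat and nerve lists were not highest in TE 4. The adipocyte list was at 619 FPKM in TE 4 (range 557 to 1011, rank 14 of 16), highest in E 2 and next in T 3 (975 FPKM), with C 3 at 641 and E 1 at 631. The Schwann cell list was at 181 FPKM in TE 4 (127 to 412, rank 9) and highest in C 2, followed by E 2 (345 FPKM) and C 3 (301 FPKM). The epithelial list, as a marker of CT26-like cells, was at 2.08 FPKM in TE 4 within a range of 1.63 to 4.31.

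The summed FPKM of the proliferation list was highest in the 5 libraries with the highest member counts. It stood at 8.81 FPKM in E 2, 8.25 in TE 4, 7.62 in C 2, 7.11 in C 3 and 6.22 in E 1, and between 3.01 and 5.75 in the other 11. The gene Stmn1 made up most of that sum in E 2 (7.62 FPKM) and in TE 4 (5.12 FPKM). Top2a, a topoisomerase of dividing cells, was 4.39-fold above its median in TE 4, the 1 of 7 tested genes at 4-fold, with C 3 next. Rrm2 and Mki67 of the same list were also highest in TE 4 (1.06 and 0.489 FPKM). Their next highest library was T 4 (0.899 and 0.255 FPKM), which is not among those 5. The part of fat, nerve or dividing cells in the members' levels was not tested.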

How the data were processed

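Gastrocnemius poly(A) RNA of 16 mice was sequenced, with 4 libraries in each of 4 groups. Per the labels and the study's methods, the authors trimmed reads with fastp (0.20.1), aligned them to GRCm39 with HISAT2 (2.1.0) and counted them per gene with HTSeq (0.11.2). Whether the counting used strand, and the annotation release, are not given in the sources used here. The authors deposited raw counts and FPKM, and the deposited FPKM follow from the counts and gene lengths.

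Counts were tested with edgeR (4.0.16) quasi-likelihood fits, TMM factors and filterByExpr over all 16 libraries, with 1 coefficient per group and Benjamini-Hochberg adjustment over 14749 genes, two-sided. The study's threshold was kept (adjusted p under 0.05, fold change over 2 or under 0.5). DESeq2 (1.42.0), limma (3.58.1), the other alternatives and the leaving out of libraries are given with the limits. FPKM described single libraries (pseudocount 0.1). The fits were checked on simulated counts.

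The members and the gene lists were chosen with earlier results of these data known. By the rule for named genes, values in every library were given for the 2 highest members of each role and for 10 genes listed by name, and for non-members the 20 with the largest fold in the library highest for most members. Same-numbered libraries share only a number and did not vary together (5 of 24 pairs had a correlation over 0.1). Antigen receptor constant regions were not analysed here: of the 13 immunoglobulin-related symbols looked for, 2 were found under those names. A few genes of the lists are not reported here by name. Positions are those of GENCODE on GRCm39.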

Additional observations from a re-analysis of the deposited data

Results flagged for a closer look

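Within each group of 4 libraries, 5 role sums and 16 genes were examined for 1 library far from the other 3 by Dixon's ratio (95% critical value for 4 libraries), which marked 25 of 84 sets. Chance marks about 1 in 20 independent sets, but these genes were chosen with their levels known and the sums are built from them, so the marks are a description and not a test. Of these, 21 concerned TE 4, 3 concerned C 3 and 1 concerned T 1.

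TE 4 stood apart for the summed FPKM of all 5 roles, at 35.4 for B cell genes, 24.1 for T cell genes, 13.01 for cytotoxic genes, 13.3 for lymphotoxin and receptor genes and 108 for stroma genes. It stood apart for each of the 16 genes. The stroma genes Glycam1, Ccl21a, Ccl19 and Cxcl13 were at 41.7, 46.2, 7.78 and 12.4 FPKM. The B cell genes Cd79a, Cd79b and Ms4a1 were at 13.4, 10.05 and 3.58 FPKM. The T cell genes Cd3e, Cd3g, Cd4, Cd8a and Cd2 were at 2.21, 4.29, 1.88, 0.757 and 3.76 FPKM. Ccl5 and Nkg7 were at 12.1 and 0.871 FPKM, and Ltb and Ccr7 at 9.58 and 2.36 FPKM.

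C 3 stood apart from the other C libraries for the lymphotoxin and receptor sum (6.31 FPKM), Ms4a1 (1.41 FPKM) and Ltb (4.22 FPKM). T 1 stood apart from the other T libraries for Nkg7 (0.370 FPKM, 11 counts). The causes were not tested.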

How the results depend on the processing

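No member was called in any of the 5 comparisons by edgeR with DESeq2's size factors, without the low-count filter, in a robust fit, with no fold limit or without any single library, and limma-voom with sample weights also called 0. With only the compared groups, fitted for the 4 comparisons other than the interaction, 0 were called of 10, 10, 26 and 8 members tested in T against C, TE against E, E against C and TE against T. With the replicate number as a replicate block the count was 0 in all 5, and the block moved the TE against E median from 1.31 to 0.19. The block also moved the unadjusted count in TE against T from 22 to 5, with 120 of 14749 genes called in that fit. Same-numbered libraries share only a number. The DESeq2 test called 1 member in T against C, TE against T and the interaction. At an unadjusted p the counts were 13, 1, 22 and 19 in T against C, TE against E, TE against T and the interaction.

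The members' median log2 fold change in TE against E turned to -0.59 with limma-voom and to -0.79 without TE 4, C 3 and E 1 together. With limma-voom it was 1.14 in TE against T and 1.37 in the interaction, and the unadjusted calls were 1 in each comparison but E against C, which had 0. Over all 14749 genes limma-voom then called 250 in T against C, 221 in TE against E and 226 in E against C. It called 106 in TE against T and 239 in the interaction. With only the compared groups the members' median was -0.92 in T against C and 1.25 in TE against T. In TE against T it was -0.15 without those 3 and -0.045 without them and C 2 and E 2, a set chosen after seeing the data. Without the 3 and the 5 it was -0.77 and -0.52 in T against C, -0.15 and -0.52 in E against C, and 0.072 and 0.64 in the interaction. Over fits without 1 library, the medians ranged from -3.13 to -1.71 in T against C, -2.28 to 2.04 in TE against E, -1.34 to 0.49 in E against C, -0.0024 to 4.14 in TE against T and 0.56 to 4.91 in the interaction. Fits without several libraries tested only 12 to 14 members.

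In TE against E, Cd79b was at -0.53 with limma-voom, -1.63 without the 3 libraries and -0.33 without the 5, and Ltb at -0.14, -0.78 and -0.094. Without 1 library Cd79b ranged from -2.24 to 2.16, Ltb from -1.56 to 2.11 and Ccl21a from -1.45 to 0.14. In TE against T, Cd79b was at -0.0058 without the 3 and -0.0048 without the 5, and Ccl21a at -0.085 in both. Without 1 library Cd79b ranged from -0.0048 to 4.24, Ccl21a from -0.082 to 1.505, and in T against C Cxcl13 from -0.84 to 1.74, Cd79b from -3.21 to -1.49 and Ltb from -2.65 to -0.96.

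Libraries in which more than 16.5 of the 33 members were at least 4-fold above their median numbered 2 (C 3 and TE 4), and 0 with a pseudocount of 1 FPKM, 4 at 2-fold, 1 at 8-fold and 1 against the median of C. The B to T cell FPKM ratio moved without Cd247, Cd27 and Cd2 (chosen after seeing the data) to 2.09 in TE 4, 1.401 in C 3, 2.08 in E 1, 1.87 in E 2 and 1.002 in C 2. Causes beyond the genes and libraries left out were not tested. Depth limits most members outside TE 4: 21 of 33 had 3 counts or fewer in at least 6 libraries.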
